A study of Mus musculus with 30 samples.

Results

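The core circadian clock of the liver was followed through 10 genes, Arntl, Clock, Npas2, Nr1d1, Nr1d2, Per1, Per2, Per3, Cry1 and Cry2, out of 29117 genes measured. They were taken by symbol from the deposited table, in which each symbol had 1 row. All 10 had values, and 9 of them were tested, because they reached 1 FPKM (fragment counts corrected for the length of the transcript and for library size) in at least 3 of the 30 libraries. Npas2 did not and is described without a test in the main analysis.

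The circadian clock is a transcriptional feedback loop that runs in nearly every cell. The activators ARNTL (also called BMAL1) and CLOCK, or its paralog NPAS2, bind E-box sequences and switch on the Per and Cry genes and the genes of the nuclear receptors REV-ERB alpha and beta (Nr1d1 and Nr1d2). PER and CRY proteins inhibit the activators, and the REV-ERBs repress Arntl, Npas2 and Clock through ROR elements. In the liver the loop times metabolic genes with the daily cycle of feeding and fasting, and Per1 and Per2 are also induced directly by signals that act through CREB and the glucocorticoid receptor.

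The mice were C57BL/6J, 10 weeks old, fasted for 12 to 16 h and injected into the peritoneum with 0.7 U/kg of human insulin or with the vehicle PBS, so both treatments share the fast and the injection. Each treatment has 15 libraries of poly(A) RNA from the left liver lobe, 3 at each of 5 sampling points within a period of 4 h, and the series' design text calls the 3 libraries biological triplicates. The labels number the points without giving minutes or the clock time of sampling, so points are named by number, without assuming an order in time or that point 1 was uninjected. In bulk tissue, fewer cells of a type and less RNA per cell cannot be told apart.

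A rough estimate of depth ran from 20.0 to 40.5 M reads, and the median library had 30.8 M with insulin and 32.0 M with PBS. Insulin and PBS libraries were never on the same sequencing lane, so treatment and lane cannot be told apart. Hepatocyte markers were abundant in every library. The 5 insulin libraries with replicate number 1 stood apart in rRNA-like RNA, with 1813 to 1963 FPKM summed over the 2 of 4 listed genes found, Lars2 and Gm26917. The sum was 287 to 374 FPKM in the other insulin libraries and 297 to 542 FPKM in PBS libraries. It was mostly Lars2, which reached 1919 FPKM, against at most 57.0 FPKM for Gm26917, and the entries Rn45s and Rn18s-rs5 were not found. Calls that were lost without these 5 libraries are named beside each result, where they were rerun. Over all tested genes the median log2 difference between insulin and PBS was -0.06, -0.12, -0.14, -0.14 and -0.17 by point, so a member's difference relative to the typical gene is higher by that amount. Scaling the libraries to median ratios brought these medians to between -0.01 and 0.01, and reversed no call of a member.

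Each member was examined in 2 ways, for whether it changed within a treatment relative to that treatment's point 1 and for whether insulin differed from PBS at the same point. Differences are of log2(FPKM + 1) with their standard error, which understates the change of low genes. A gene rose or fell where limma's test over all 13589 genes gave a Benjamini-Hochberg adjusted p below 0.05.

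Relative to point 1, Per2 and Per3 rose and Arntl fell in both treatments, and Per1, Nr1d2, Cry1 and Cry2 rose in insulin libraries. Passing in 1 treatment only does not show a larger change there. The test of the difference of the 2 courses passed for Per1 at point 2 and for no other member or point. Among the insulin libraries 3 of the 9 members changed at point 2, where 3.22% of all tested genes did. The count was 6 at point 3 (8.96% of all), 7 at point 4 (9.65%) and 4 at point 5 (9.60%). In PBS libraries no member passed at point 2 (0.552% of all did), although 3 members had an unadjusted p below 0.05 in limma. At point 3 (2.38%), point 4 (2.86%) and point 5 (1.55%), 3 members changed in PBS libraries, and these were Arntl, Per2 and Per3 each time. Points 2 to 5 of a treatment share the point 1 libraries of that treatment, so these counts are not separate evidence. The F test across the 5 points passed for 7 members in insulin libraries (13.3% of all genes) and for 3 in PBS libraries (3.27%). For Per3 in insulin libraries it was lost without insulin replicates 1 (0.351), 2 (0.0614) or 3 (0.0829), without a filter on low values (0.0593) and in a fit of only the libraries compared (0.102), as limma adjusted p-values. For Cry1 it was lost without insulin replicates 1 (0.0893) or 2 (0.269). In PBS libraries it was lost for Per2 without PBS replicates 2 (0.11).

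**Figure D1:**
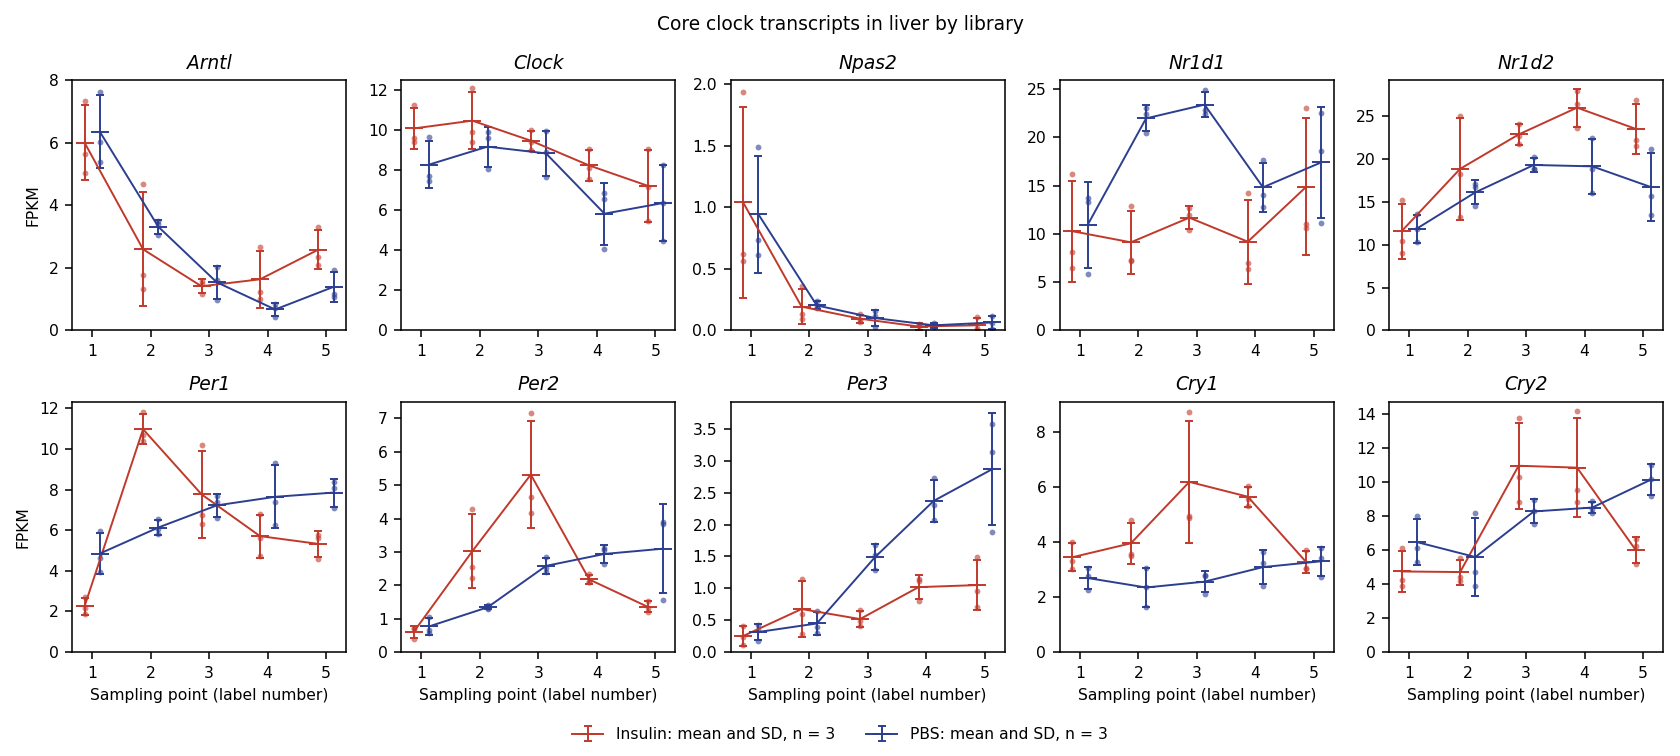
FPKM of the 10 clock genes (vertical axis, from 0, a scale per gene) by sampling point (horizontal axis). Dots are libraries, dashes and bars the mean and SD of 3, with insulin in red to the left of PBS in blue; Arntl and Npas2 are highest at point 1 in both treatments, Per1 peaks at point 2 and Per2 at point 3 in insulin libraries, and Per3 stands highest in PBS libraries at points 4 and 5.

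Arntl, the activator without which the loop stops, fell in both treatments (ENSMUSG00000055116, chromosome 7, 113207465 to 113314126, plus strand, GRCm38). Its insulin libraries held 5.64, 7.34 and 5.04 FPKM (point 1), 1.78, 1.33 and 4.68 (point 2), 1.16, 1.48 and 1.59 (point 3), 0.994, 1.23 and 2.68 (point 4) and 2.10, 3.31 and 2.35 FPKM (point 5). Its PBS libraries held 5.39, 6.04 and 7.64 FPKM (point 1), 3.39, 3.49 and 3.06 (point 2), 1.62, 2.02 and 0.974 (point 3), 0.850, 0.725 and 0.431 (point 4) and 1.16, 1.08 and 1.95 FPKM (point 5). From point 2 on, every library of both treatments stood below all 3 of its own point 1 libraries. In insulin libraries Arntl fell by 1.06 ± 0.26 at point 2 (adjusted p = 0.0187, limma), 1.53 ± 0.26 at point 3 (0.000264), 1.45 ± 0.26 at point 4 (0.000475) and 0.97 ± 0.26 at point 5 (0.0166). In PBS libraries it fell by 1.55 ± 0.26 at point 3 (adjusted p = 0.000905, limma), 2.14 ± 0.26 at point 4 (1.93e-05) and 1.63 ± 0.26 at point 5 (0.000771), and the difference of -0.76 ± 0.26 at point 2 did not pass (0.267). The lowest mean was reached at point 3 in insulin libraries, at 1.41 ± 0.228 FPKM, and at point 4 in PBS libraries, at 0.669 ± 0.215 FPKM (SD, n = 3 each).

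Arntl did not pass the test between treatments at any point. At point 4 its insulin libraries held 0.994 to 2.68 FPKM, against 0.431 to 0.850 FPKM in PBS libraries, without overlap, and the difference was 0.61 ± 0.26 (adjusted p = 0.109, limma). At point 5 the groups again did not overlap, with 2.10 to 3.31 FPKM in insulin and 1.08 to 1.95 FPKM in PBS libraries, and the difference of 0.59 ± 0.26 (adjusted p = 0.108) passed only under median-ratio scaling (0.0348). The fall at point 2 within insulin libraries was lost without point 1 replicate 2 (0.112), point 2 replicate 1 (0.099), point 2 replicate 2 (0.165) or all replicates 1 (0.162) and in a fit of the insulin libraries alone (0.0902), as limma adjusted p-values. That at point 5 was lost without point 1 replicate 2 (0.088), point 5 replicate 1 (0.0835), point 5 replicate 3 (0.0591) or all replicates 1 (0.124) and in that fit of the insulin libraries alone (0.0647). Exons of Arntl overlap Gm45355 on the other strand by 33 bases, and the strand setting of the quantification is not given in the sources used here, so reads in that overlap cannot be told apart.

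Promoter sequences of RefSeq on GRCm38.p6 were available for 9 members at 13 start sites, and Per2 had no entry. A window of 300 bases per start was searched on both strands for 7 motifs of clock and signal regulators: the E-box CACGTG, the E-prime box CACGTT, the D-box TTATGTAA, its variant TTATGCAA, the ROR element GTAGGTCA, the CRE TGACGTCA and its first 7 letters TGACGTC, which every CRE also holds. The second start of Arntl, whose level fell in both treatments, held a ROR element on the gene's strand at 30 to 37 bases into the transcript, a motif found in 0.622% of the 32807 promoter windows. It is shown in capitals within 30 bases at chr7:113207529-113207558, plus strand.
Arntl site: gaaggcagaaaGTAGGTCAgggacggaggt

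Npas2, the paralog that can stand in for CLOCK, was the scarcest member, at a mean of 0.275 FPKM (ENSMUSG00000026077, chromosome 1, 39193731 to 39363236, plus strand). Its insulin libraries held 0.625, 1.94 and 0.561 FPKM at point 1, and between 0 and 0.357 FPKM at points 2 to 5, where 2 libraries had no listed value and were set to 0. The PBS libraries held 0.610, 0.734 and 1.49 FPKM at point 1 and between 0.0137 and 0.240 FPKM at points 2 to 5. In each treatment all libraries of points 2 to 5 stood below all 3 of point 1, as for Arntl. When genes of any level were fitted, Npas2 fell by 0.83 ± 0.16 (adjusted p = 0.00396, limma) at point 3 in insulin libraries and by 0.80 ± 0.16 (adjusted p = 0.0176, limma) in PBS libraries relative to their point 1, and it passed at points 2 to 5 in insulin and at points 3 to 5 in PBS libraries, on a scale that a value of 1 added to each FPKM compresses for so low a gene. The treatments differed by between -0.03 and 0.03 at the 5 points in that fit, with adjusted p-values of 1 in limma.

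Clock, the partner of ARNTL, was more even (ENSMUSG00000029238, chromosome 5, 76209868 to 76304792, minus strand). Levels in insulin libraries were 11.2, 9.58 and 9.42 FPKM at point 1 and 5.44, 9.04 and 7.16 FPKM at point 5. Levels in PBS libraries were 9.63, 7.46 and 7.72 FPKM at point 1 and 4.44, 8.25 and 6.37 FPKM at point 5. In the fit of all libraries it passed no test against point 1 or between treatments, and without insulin replicate 2 of point 5 the insulin difference from point 1 passed there (0.049, limma). The nearest between treatments was point 4, where 7.53 to 9.04 FPKM in insulin libraries stood above 4.05 to 6.87 FPKM in PBS libraries, by 0.46 ± 0.18 (adjusted p = 0.0916, limma, and 0.0225 under median-ratio scaling).

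**Figure D2:**
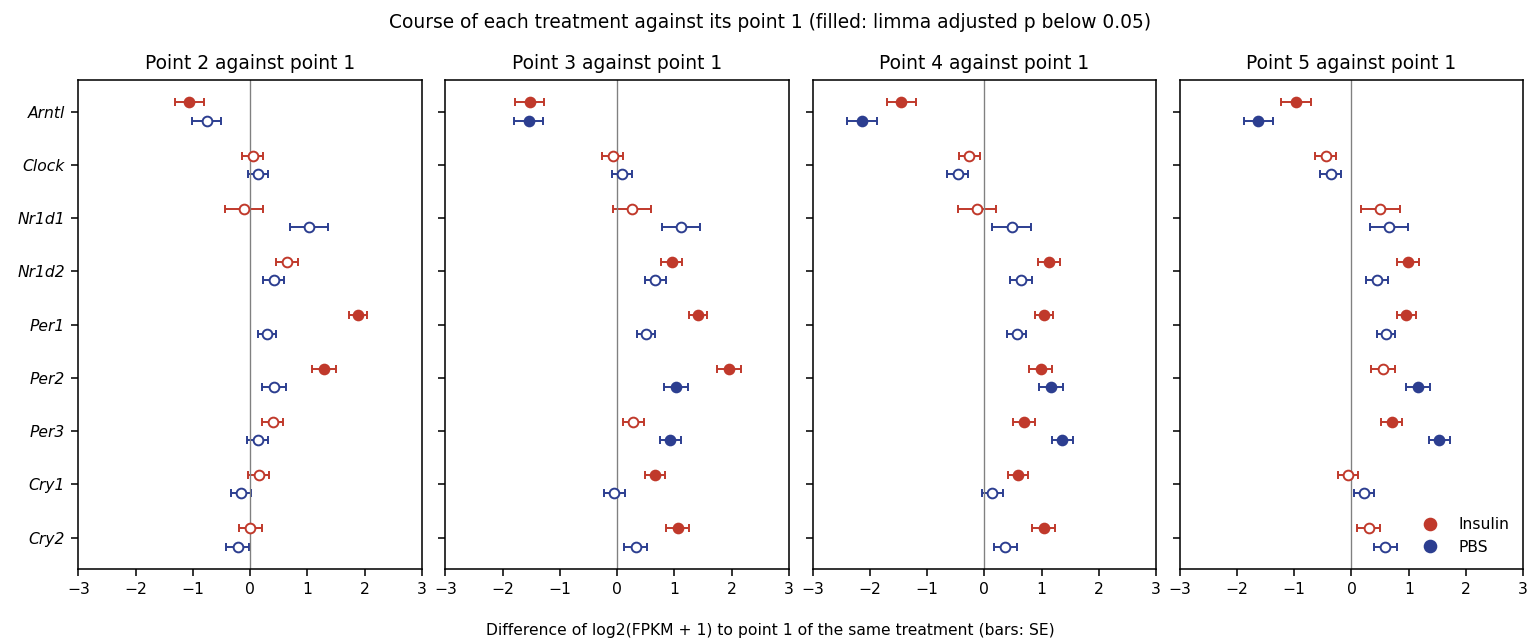
Difference of log2(FPKM + 1) between each of points 2 to 5 and point 1 of the same treatment (horizontal axis; bars, standard error) for the 9 tested members (rows), insulin in red above PBS in blue, filled where limma's adjusted p was below 0.05. Arntl lies left of 0 throughout, at point 2 Per1 in insulin libraries lies furthest right, and Per3 lies further right in PBS than in insulin libraries at points 3 to 5.

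The REV-ERB genes encode the repressors that close the second loop. Nr1d2 was the most abundant member, at a mean of 18.6 FPKM (ENSMUSG00000021775, chromosome 14, 18204054 to 18239127, minus strand). With insulin it measured 10.5, 9.08 and 15.2 FPKM (point 1), 18.2, 25.0 and 13.3 (point 2), 21.7, 24.1 and 22.7 (point 3), 26.4, 27.9 and 23.6 (point 4) and 21.5, 26.9 and 22.2 FPKM (point 5). With PBS it measured 11.8, 13.5 and 10.3 FPKM (point 1), 16.8, 17.0 and 14.5 (point 2), 18.8, 18.9 and 20.2 (point 3), 18.9, 22.4 and 16.1 (point 4) and 15.6, 21.1 and 13.4 FPKM (point 5). At points 3 to 5 every insulin library exceeded those of point 1, and in PBS libraries those of points 2 to 4 did. Nr1d2 rose in insulin libraries by 0.95 ± 0.19 at point 3 (adjusted p = 0.00138, limma), 1.13 ± 0.19 at point 4 (0.00023) and 0.99 ± 0.19 at point 5 (0.00109), and the 0.64 ± 0.19 at point 2 did not pass (0.0586). It passed at point 2 under median-ratio scaling (0.0357), with replicate number as a block (0.0405) or random effect (0.0349), and without replicate 3 of point 1 (0.0169) or of point 2 (0.0104). In PBS libraries it stood 0.66 ± 0.19 higher at point 3 (adjusted p = 0.0604) and 0.64 ± 0.19 higher at point 4 (0.0638), and passed there with the replicate number, which in PBS libraries is also the lane, as a block (0.0417 and 0.043). Against PBS, insulin libraries did not overlap and stood higher at points 3, 4 and 5, by 0.23 ± 0.19, 0.43 ± 0.19 and 0.48 ± 0.19, and none of these passed (adjusted p = 0.443, 0.121 and 0.0701, limma). Under median-ratio scaling the difference passed at point 4 (0.0443) and at point 5 (0.0154), and without PBS replicate 2 at point 5 (0.0297).

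Nr1d1 was lower with insulin at points 2 and 3 by differences that did not pass the test (ENSMUSG00000020889, chromosome 11, 98767932 to 98775333, minus strand). At point 2 its insulin libraries held 12.9, 7.26 and 7.22 FPKM, against 20.4, 22.4 and 23.0 FPKM in PBS libraries. At point 3 they held 10.4, 12.0 and 12.7 FPKM, against 22.5, 22.8 and 24.9 FPKM in PBS libraries. The groups did not overlap at either point. The insulin mean was 0.416 of the PBS mean at point 2, a difference of -1.23 ± 0.34 (adjusted p = 0.0677, limma), and 0.499 of it at point 3, a difference of -0.95 ± 0.34 (0.0726). In a fit of only the 6 libraries of point 3 the difference passed there (0.0128, limma). Without insulin replicate 3 of point 4 the difference at point 4 passed (0.0459). At point 1 the libraries ranged widely, with 8.08, 6.51 and 16.2 FPKM in insulin and 5.81, 13.7 and 13.3 FPKM in PBS libraries, and no course against point 1 passed. The PBS libraries at points 2 and 3 nevertheless lay above all those of point 1, by 1.03 ± 0.34 (adjusted p = 0.25) and 1.11 ± 0.34 (0.0919). Exons of Nr1d1 overlap those of Thra on the other strand by 263 bases, so part of its reads cannot be told apart from those of Thra.

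The 3 Period genes encode the repressors that partner with CRY, and against PBS, Per1 and Per2 were higher with insulin at point 2 or 3 and lower at point 5, and Per3 was lower from point 3. Per1 is the member that responds fastest to signals from outside the loop (ENSMUSG00000020893, chromosome 11, 69095217 to 69109960, plus strand). The insulin libraries held 1.89, 2.70 and 2.17 FPKM (point 1), 10.7, 11.8 and 10.4 (point 2), 6.32, 10.2 and 6.78 (point 3), 5.60, 4.72 and 6.82 (point 4) and 4.59, 5.63 and 5.76 FPKM (point 5). The PBS libraries held 3.94, 5.96 and 4.64 FPKM (point 1), 5.79, 6.07 and 6.54 (point 2), 7.41, 7.67 and 6.59 (point 3), 7.40, 6.24 and 9.30 (point 4) and 8.10, 8.39 and 7.08 FPKM (point 5). The 3 insulin libraries of point 2 were the highest of all 30, and the insulin libraries of point 1 were the 3 lowest.

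Per1 rose in insulin libraries at point 2 to 4.87 times the mean of point 1, by 1.89 ± 0.16 (adjusted p = 4.18e-08, limma). It stayed higher than at point 1 by 1.41 ± 0.16 at point 3 (1.42e-06), 1.04 ± 0.16 at point 4 (9.21e-05) and 0.96 ± 0.16 at point 5 (0.00028). In PBS libraries the differences were 0.30 ± 0.16, 0.50 ± 0.16, 0.56 ± 0.16 and 0.61 ± 0.16 at points 2 to 5, and none passed (adjusted p = 0.625, 0.114, 0.0553 and 0.0511, limma). With the replicate number as a block the last 2 passed (0.0488 and 0.0447), as they did with it as a random effect (0.0356 and 0.0302) and without PBS replicate 2 of point 1 (0.0313 and 0.0288).

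The change of Per1 from point 1 to point 2 was larger in insulin than in PBS libraries by 1.59 ± 0.22 (adjusted p = 0.000658, limma test of the difference of the 2 courses). It was the 1 of 9 members to pass that test at point 2, where 0.375% of all genes did, and it passed under all 19 alternatives of scaling, filter, model and left-out libraries. Both points contribute to it. At point 1 Per1 was lower in all 3 insulin libraries than in all 3 PBS libraries, a difference of -0.84 ± 0.16 that did not pass (adjusted p = 0.0936), and at point 2 it was higher in all 3, by 0.75 ± 0.16 (0.0134). Without PBS replicate 1 the difference at point 1 passed (0.0408), as it did with a pseudocount of 0.1 (0.0395), and that at point 2 was lost without insulin replicate 2 (0.0856) or PBS replicate 2 (0.0599).

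Per1 has 2 RefSeq start sites, and the 250 bases before each are shown because Per1 was the member whose courses differed at point 2. The stretch before the first start, at chr11:69098699-69098948, plus strand, holds an E-box (found in 7.15% of all promoter windows of 300 bases) and a D-box variant (0.744%). The stretch before the second, at chr11:69099902-69100151, plus strand, lies outside annotated exons and holds the 7 letters of a CRE (3.21%), the element bound by CREB. Capitals mark the motifs. A match describes the letters only.
Per1 first start: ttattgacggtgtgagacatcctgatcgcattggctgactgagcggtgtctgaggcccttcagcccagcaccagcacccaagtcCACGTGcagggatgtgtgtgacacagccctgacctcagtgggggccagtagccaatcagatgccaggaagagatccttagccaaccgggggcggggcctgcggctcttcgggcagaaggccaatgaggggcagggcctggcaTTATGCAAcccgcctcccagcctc
Per1 second start: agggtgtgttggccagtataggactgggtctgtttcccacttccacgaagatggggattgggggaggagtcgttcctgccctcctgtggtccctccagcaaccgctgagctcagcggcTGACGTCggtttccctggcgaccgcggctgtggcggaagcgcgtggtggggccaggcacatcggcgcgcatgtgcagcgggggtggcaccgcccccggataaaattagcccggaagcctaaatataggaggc

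Per2 had its highest insulin mean at point 3, whereas Per1 had it at point 2 (ENSMUSG00000055866, chromosome 1, 91415982 to 91459324, minus strand). In insulin libraries its levels were 0.401, 0.728 and 0.696 FPKM (point 1), 2.23, 4.28 and 2.55 (point 2), 4.63, 7.16 and 4.16 (point 3), 2.09, 2.33 and 2.10 (point 4) and 1.53, 1.21 and 1.33 FPKM (point 5). In PBS libraries its levels were 1.06, 0.669 and 0.569 FPKM (point 1), 1.33, 1.28 and 1.40 (point 2), 2.50, 2.85 and 2.39 (point 3), 2.64, 3.12 and 3.05 (point 4) and 3.82, 3.91 and 1.56 FPKM (point 5). In insulin libraries the 3 values of point 3 exceeded all others apart from replicate 2 of point 2, which lay among them, and in PBS libraries the means grew with the point number. Per2 rose in insulin libraries by 1.29 ± 0.20 at point 2 (adjusted p = 0.000232, limma), 1.95 ± 0.20 at point 3 (4.93e-07) and 0.99 ± 0.20 at point 4 (0.00226), and the 0.55 ± 0.20 at point 5 did not pass (0.0934) except with a pseudocount of 0.1 (0.0195). In PBS libraries it rose by 1.03 ± 0.20 at point 3 (adjusted p = 0.00516), 1.16 ± 0.20 at point 4 (0.00126) and 1.16 ± 0.20 at point 5 (0.00246), and stood 0.41 ± 0.20 higher at point 2 without passing (0.571).

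Against PBS, Per2 was higher with insulin at point 3 and lower at point 5. At point 3 the insulin mean was 2.06 times the PBS mean, a rise of 0.79 ± 0.20 (adjusted p = 0.0183, limma), and the groups did not overlap. At point 5, with 1.21 to 1.53 FPKM in insulin and 1.56 to 3.91 FPKM in PBS libraries, it fell by 0.74 ± 0.20 (0.0147). The rise at point 3 was lost without insulin replicate 2 (0.108), PBS replicate 1 (0.0552) or PBS replicate 3 (0.0661). The fall at point 5 was lost without PBS replicate 1 (0.0698) or 2 (0.0791) under median-ratio scaling (0.0526) and in a fit of only the 6 libraries of the point (0.121). Under median-ratio scaling the difference at point 2 also passed (0.0356).

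Per3, a weaker repressor than its paralogs and a gene activated through D-boxes, was low at point 1 and had its highest levels in PBS libraries (ENSMUSG00000028957, chromosome 4, 151003652 to 151044665, minus strand). Insulin libraries held 0.233, 0.110 and 0.411 FPKM (point 1), 0.604, 1.14 and 0.279 (point 2), 0.407, 0.482 and 0.662 (point 3), 1.11, 0.808 and 1.14 (point 4) and 1.49, 0.705 and 0.963 FPKM (point 5). PBS libraries held 0.417, 0.348 and 0.177 FPKM (point 1), 0.297, 0.650 and 0.397 (point 2), 1.28, 1.67 and 1.53 (point 3), 2.08, 2.73 and 2.31 (point 4) and 3.15, 3.57 and 1.89 FPKM (point 5). At points 3, 4 and 5 every PBS library exceeded every insulin library of the same point. Per3 rose in PBS libraries by 0.93 ± 0.18 at point 3 (adjusted p = 0.00493, limma), 1.36 ± 0.18 at point 4 (8.37e-05) and 1.54 ± 0.18 at point 5 (2.07e-05), reaching 9.14 times its point 1 mean. In insulin libraries it rose by 0.69 ± 0.18 at point 4 (0.0157) and 0.70 ± 0.18 at point 5 (0.0154), and stood 0.28 ± 0.18 above point 1 at point 3 without passing (0.454). Both insulin rises were lost without point 1 replicate 2 (0.0834 and 0.0778), without replicate 1 of the same point (0.0541 and 0.114) and without all insulin replicates 1 (0.115 and 0.21).

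Against PBS, Per3 fell with insulin by 0.72 ± 0.18 at point 3 (adjusted p = 0.0175, limma), 0.74 ± 0.18 at point 4 (0.0118) and 0.91 ± 0.18 at point 5 (0.00204). The insulin mean was 0.346, 0.429 and 0.366 times the PBS mean at these points. The call at point 3 was lost without insulin replicate 1 (0.0626) or 2 (0.0548), PBS replicate 2 (0.0657) or 3 (0.0568), and all insulin replicates 1 (0.076). That at point 4 was lost without insulin replicate 2 (0.0632) with a pseudocount of 0.1 (0.0535) or when the 6 libraries of the point were fitted alone (0.067), and that at point 5 in the same kind of fit (0.0543). The 250 bases before the start of Per3, at chr4:151044666-151044915, minus strand, hold 2 copies of the D-box (found in 0.936% of promoter windows), the element bound by DBP, TEF and HLF as activators and by NFIL3 as a repressor. They are shown in capitals because the genes of these 4 factors are described further on.
Per3 start: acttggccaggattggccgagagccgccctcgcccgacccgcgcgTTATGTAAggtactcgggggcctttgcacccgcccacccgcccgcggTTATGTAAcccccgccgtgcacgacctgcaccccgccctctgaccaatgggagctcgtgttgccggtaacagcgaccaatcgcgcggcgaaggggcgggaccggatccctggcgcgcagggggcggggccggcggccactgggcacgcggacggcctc

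The Cryptochrome genes encode the stronger repressors of the loop. Cry1 rose within insulin libraries and passed no test against point 1 in PBS libraries (ENSMUSG00000020038, chromosome 10, 85131700 to 85185064, minus strand). With insulin the values were 3.02, 3.30 and 4.02 FPKM (point 1), 3.50, 3.55 and 4.81 (point 2), 4.94, 8.74 and 4.88 (point 3), 5.32, 6.05 and 5.58 (point 4) and 3.07, 3.01 and 3.73 FPKM (point 5). With PBS the values were 2.25, 2.76 and 3.07 FPKM (point 1), 2.35, 3.05 and 1.64 (point 2), 2.76, 2.80 and 2.12 (point 3), 3.24, 3.63 and 2.40 (point 4) and 3.77, 2.72 and 3.41 FPKM (point 5). At points 2, 3 and 4 every insulin library exceeded every PBS library of the same point. Against PBS, Cry1 rose with insulin by 0.98 ± 0.18 at point 3 (adjusted p = 0.00171, limma), to 2.42 times the PBS mean, and by 0.71 ± 0.18 at point 4 (0.0135), and the 0.58 ± 0.18 at point 2 did not pass (0.105) except under median-ratio scaling (0.04). The call at point 3 held under all 13 alternatives, with adjusted p-values of 0.000253 to 0.0439. The call at point 4 was lost without insulin replicate 2 (0.0596), without PBS replicate 3 (0.0813) and in a fit of the 6 libraries alone (0.0748).

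Against its own point 1, Cry1 rose in insulin libraries by 0.66 ± 0.18 at point 3 (adjusted p = 0.0205, limma) and 0.58 ± 0.18 at point 4 (0.0388). In PBS libraries the largest difference was 0.22 ± 0.18 at point 5 (0.686). The difference between the 2 courses was 0.71 ± 0.25 at point 3 and did not pass (0.296), so a larger change of Cry1 with insulin than with PBS is not shown. The rise at point 3 was lost without point 1 replicate 1 (0.0821) or 2 (0.0697), point 3 replicate 2 (0.193) or all replicates 1 (0.0799). That at point 4 was lost without point 1 replicate 1 or 2 (0.127 and 0.113), without any single replicate of point 4 (0.0661, 0.138 and 0.0714), without all replicates 1 (0.183), without a filter on low values (0.078) and in a fit of the insulin libraries alone (0.0691).

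The 250 bases before the start of Cry1, at chr10:85185055-85185304, minus strand, hold an E-box and, on the opposite strand, an E-prime box (found in 4.69% of windows), the elements of ARNTL and CLOCK. They are shown because Cry1 held its call against PBS at point 3 under all alternatives. Capitals mark both motifs, of which the E-prime box reads AACGTG on the strand of the gene. The other searched members with either motif were Per1, with 1 E-box before its first start, and Nr1d1 and Cry2, with 1 E-prime box each. Per2 had no entry and was not searched.
Cry1 start: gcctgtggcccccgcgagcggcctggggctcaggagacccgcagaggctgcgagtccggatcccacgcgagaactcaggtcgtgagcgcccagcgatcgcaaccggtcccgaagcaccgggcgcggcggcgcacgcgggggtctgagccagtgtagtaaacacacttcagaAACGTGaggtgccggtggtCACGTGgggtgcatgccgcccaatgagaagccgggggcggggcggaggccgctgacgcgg

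Cry2 was higher than Cry1 at a mean of 7.62 FPKM, against 3.65 FPKM for Cry1 (ENSMUSG00000068742, chromosome 2, 92403646 to 92434043, minus strand). Cry2 in insulin libraries stood at 4.26, 3.86 and 6.10 FPKM (point 1), 4.38, 5.55 and 4.18 (point 2), 8.84, 13.7 and 10.3 (point 3), 8.82, 14.2 and 9.54 (point 4) and 6.22, 5.17 and 6.65 FPKM (point 5). Cry2 in PBS libraries stood at 6.12, 7.98 and 5.30 FPKM (point 1), 3.90, 8.18 and 4.68 (point 2), 8.96, 7.55 and 8.29 (point 3), 8.20, 8.87 and 8.43 (point 4) and 9.20, 11.0 and 10.2 FPKM (point 5). Points 3 and 4 were the high points in insulin libraries and point 5 in PBS libraries, where it did not overlap point 1. Cry2 rose in insulin libraries by 1.06 ± 0.20 at point 3 (adjusted p = 0.0011, limma) and 1.04 ± 0.20 at point 4 (0.00126), and the PBS difference of 0.59 ± 0.20 at point 5 did not pass (0.175). Against PBS it fell with insulin at point 5 by 0.67 ± 0.20 (0.0236), without overlap. That call was lost without insulin replicate 1 (0.062) or 2 (0.0754), PBS replicate 2 (0.0735) or 3 (0.067), all insulin replicates 1 (0.0708), without a filter on low values (0.0533) and under median-ratio scaling (0.096). Its exons overlap D930015M05Rik on the other strand by 295 bases, so part of its reads cannot be told apart.

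**Figure D3:**
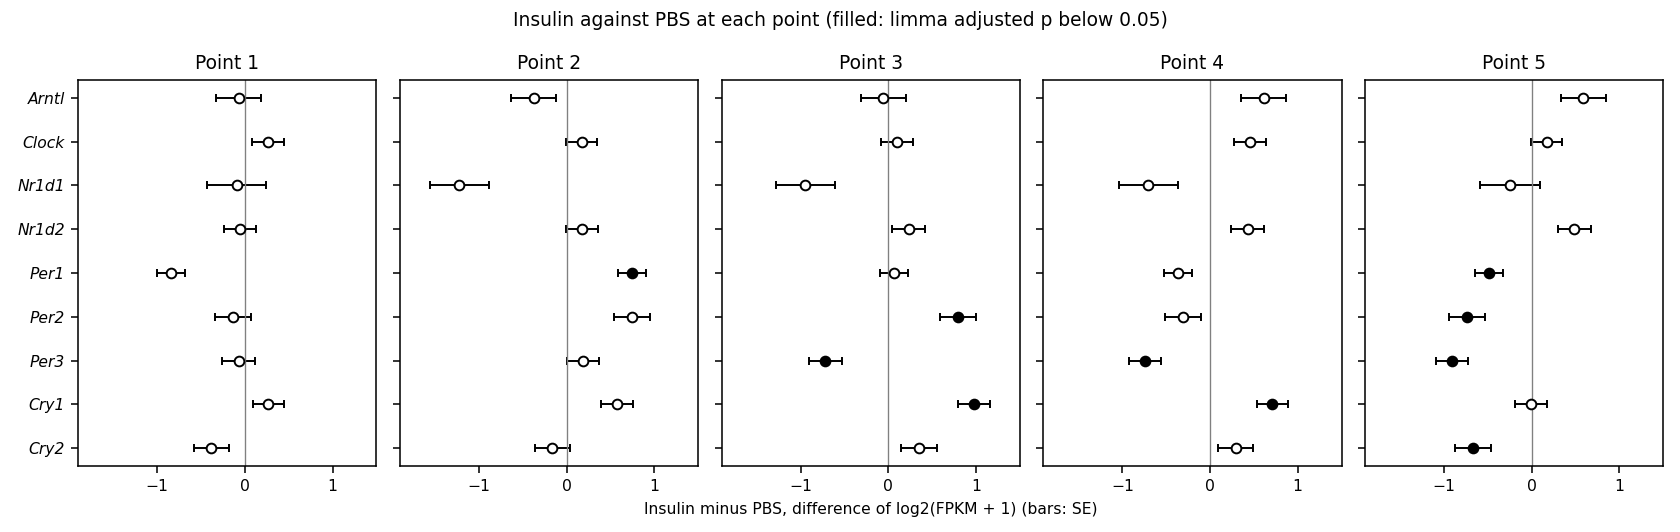
Difference of log2(FPKM + 1) between insulin and PBS (horizontal axis; bars, standard error) for the 9 tested members (rows) at each sampling point (panels), filled where limma's adjusted p was below 0.05. Filled points lie right of 0 for Per1 at point 2, for Per2 at point 3 and for Cry1 at points 3 and 4, and left of 0 for Per3 at points 3 to 5 and for Per1, Per2 and Cry2 at point 5.

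Counted by point, insulin against PBS changed no member at point 1 (0.00736% of all genes), with 1 member, Per1, at an unadjusted p below 0.05 in limma. At point 2, 1 member rose (1.35% of all genes changed). At point 3, 2 rose and 1 fell (9.45%), at point 4, 1 rose and 1 fell (13.2%), and at point 5, 4 fell (19.1%). Under median-ratio scaling the calls were 3 higher at point 2 and, at point 4, 3 higher and 1 lower. At point 5 that scaling gave 2 higher members, Arntl and Nr1d2, and 1 lower, Per3. The direction of the count at point 5 thus depends on the scaling. The counts at points 3 to 5 stand beside many changed genes of all kinds. The median difference of the 9 members was 0.17, 0.10, 0.29 and -0.25 at points 2 to 5, beside -0.12, -0.14, -0.14 and -0.17 for all tested genes. Per1 fell at point 5 by 0.49 ± 0.16 (adjusted p = 0.0342), with 4.59, 5.63 and 5.76 FPKM in insulin and 8.10, 8.39 and 7.08 FPKM in PBS libraries. The call was lost without insulin replicate 1 (0.152), any PBS replicate (0.0782, 0.0979 and 0.0514) or all insulin replicates 1 (0.16), without a filter on low values (0.0653), under median-ratio scaling (0.163) and in a fit of only the 6 libraries (0.0663).

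The difference of the courses was tested for every member. At point 3 no member passed (0.736% of all genes), with 5 at an unadjusted p below 0.05 in limma, of which Per1 had the smallest p at 0.91 ± 0.22 (adjusted p = 0.057). That difference of Per1 passed with a pseudocount of 0.1 (0.0332), under median-ratio scaling (0.0118), with replicate number as a random effect (0.0338) and without insulin replicate 1 of point 3 (0.0322) or PBS replicate 1 of point 1 (0.0496). At point 4 none passed (0.787%), with 3 at an unadjusted p below 0.05, and at point 5 none (1.06%), with 2. The treatment by point F test, which asks whether the gap between treatments depends on the point, passed for the 3 Period genes, Per1 (adjusted p = 0.00144), Per2 (0.00618) and Per3 (0.0486), where 1.77% of all genes passed. Per1 passed it in all alternatives run. Per2 was lost without insulin replicates 2 (0.0706) and PBS replicates 1 (0.113) or 2 (0.0876), and Per3 in 10 of 11 alternatives, with adjusted p-values of 0.0274 to 0.298.

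Markers of other liver cells moved with some of these groups. At point 4 the summed sinusoidal endothelial markers (5 of 5 found) were 39.2 to 50.1 FPKM in insulin and 54.5 to 67.7 FPKM in PBS libraries, and the Kupffer cell markers (5 of 5) 64.6 to 80.1 FPKM in insulin and 84.0 to 179 FPKM in PBS libraries. At point 5 the endothelial sum was 34.7 to 43.5 FPKM in insulin and 49.8 to 53.7 FPKM in PBS libraries, and the erythroid sum (5 of 5) 219 to 262 FPKM in insulin and 311 to 458 FPKM in PBS libraries. No marker of these 3 lists had a library at 0. The erythroid sum was also higher at point 1, with 409 to 757 FPKM in insulin and 375 to 960 FPKM in PBS libraries, than at point 4, with 228 to 394 FPKM in insulin and 246 to 356 FPKM in PBS libraries. Their part in the results was not tested.

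Genes driven by the clock rose against point 1 in both treatments. Of 7 output genes and repressors 6 were tested, and at points 3, 4 and 5 the same 4 genes rose in insulin libraries (8.96, 9.65 and 9.60% of all genes changed) and in PBS libraries (2.38, 2.86 and 1.55%): Dbp and Tef, activators of D-box genes, Ciart, a repressor of the activators, and Bhlhe40, an E-box repressor. At point 4 the median over the list was 1.35 in insulin and 1.67 in PBS libraries, beside -0.02 and 0.06 over all tested genes. Ciart averaged 11.5 ± 2.52 FPKM in insulin and 15.1 ± 3.49 FPKM in PBS libraries at point 3, against 0.527 ± 0.493 FPKM in insulin and 1.12 ± 1.04 FPKM in PBS libraries at point 1 (SD, n = 3 each). In insulin libraries the rise of Dbp was lost at point 3 without insulin point 1 replicate 1 (0.085), insulin point 1 replicate 2 (0.102), insulin point 3 replicate 1 (0.0522) or insulin point 3 replicate 3 (0.0843), and also without a filter on low values (0.0524), in a fit of only the libraries compared (0.0609) and without all insulin replicates 1 (0.205). At point 4 it was lost without all insulin replicates 1 (0.124). At point 5 it was lost without insulin point 1 replicate 2 (0.065) and without all insulin replicates 1 (0.132). The rise of Tef at point 3 was lost without all insulin replicates 1 (0.0526). Hlf, the third activator of D-box genes, passed no test against point 1 in either treatment.

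Between treatments, 1 of the 6 tested output genes and repressors rose at point 2 (1.35% of all genes changed). At point 3, 1 rose and 2 fell (9.45%). At points 4 (13.2%) and 5 (19.1%) 1 fell, close to the share of all genes. Dbp fell with insulin at points 3, 4 and 5. It averaged 7.30 ± 2.60, 8.50 ± 0.821 and 8.03 ± 1.75 FPKM in insulin libraries, against 22.9 ± 3.04, 32.4 ± 7.27 and 26.3 ± 6.97 FPKM in PBS libraries (SD, n = 3 each). The differences were -1.57 ± 0.47 (adjusted p = 0.0376, limma), -1.80 ± 0.47 (0.016) and -1.58 ± 0.47 (0.0219). The call at point 3 was lost without insulin replicate 1 (0.0792), insulin replicate 2 (0.14), PBS replicate 1 (0.0889), PBS replicate 2 (0.072) or PBS replicate 3 (0.113), and also with a pseudocount of 0.1 (0.0956), without a filter on low values (0.0969), under median-ratio scaling (0.0637) and without all insulin replicates 1 (0.102). The call at point 4 was lost without insulin replicate 2 (0.0632) or PBS replicate 3 (0.0719), with a pseudocount of 0.1 (0.0544) and without all insulin replicates 1 (0.0677). That of Dbp at point 5 was lost without insulin replicate 1 (0.0775), insulin replicate 3 (0.0645) or PBS replicate 2 (0.0797), with a pseudocount of 0.1 (0.0699), without a filter on low values (0.0594) and without all insulin replicates 1 (0.1). Nfil3, the repressor of D-box genes, rose with insulin by 1.97 ± 0.27 at point 2 (0.000123) and 1.41 ± 0.27 at point 3 (0.00242), the second lost in a fit of only the libraries compared (0.077). Hlf fell by 0.82 ± 0.19 at point 3 (0.00897), which was lost without insulin replicate 2 (0.0575) or PBS replicate 2 (0.0568). Tef, Ciart and Bhlhe40 passed between treatments at no point. Per3, whose promoter holds 2 D-boxes, was lower with insulin at the same 3 points as Dbp, and a link between them was not tested.

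Rora, which encodes an activator of Arntl that competes with the REV-ERBs, rose with insulin by 0.44 ± 0.13 at point 3 (adjusted p = 0.0331, limma). The call was lost without insulin replicate 2 (0.19), PBS replicate 1 (0.0906), PBS replicate 2 (0.0647) or PBS replicate 3 (0.0906), without a filter on low values (0.0536) and in a fit of only the libraries compared (0.114). Of 11 kinases and degradation factors of PER and CRY, 10 were tested and none passed between treatments at points 1 and 2. At point 3, 1 rose and 1 fell (9.45% of all genes changed), at point 4, 2 rose and 2 fell (13.2%), and at point 5, 2 rose (19.1%), close to the share of all genes at point 5. Prkaa2, a subunit of the AMP-activated kinase that marks CRY for degradation, rose at all 3 points, by 0.33 ± 0.10 (0.0336), 0.39 ± 0.10 (0.012) and 0.38 ± 0.10 (0.00967). Leaving out any 1 of the 6 libraries of point 3 ended its call there (adjusted p up to 0.121), and those at points 4 and 5 were lost without insulin replicate 2 (0.0809) or PBS replicate 3 (0.0839) and without PBS replicate 3 (0.0503). A fit of only the libraries compared lost it at all 3 points (0.0896, 0.145 and 0.0697). Leaving out all insulin replicates 1 lost it at point 3 (0.0799). Against point 1, none of that list passed in PBS libraries at points 2 to 5 (0.552, 2.38, 2.86 and 1.55% of all genes did). In insulin libraries 1 of the 10 tested rose at points 2, 3 and 4 (3.22, 8.96 and 9.65% of all genes changed). That was close to the share of all genes at points 3 and 4, and none passed at point 5 (9.60%). The gene was Gsk3b each time. Its call at point 2 was lost without insulin point 1 replicate 1 (0.0689), insulin point 1 replicate 2 (0.0951), insulin point 1 replicate 3 (0.0618) or insulin point 2 replicate 2 (0.233), and also in a fit of only the libraries compared (0.101) and without all insulin replicates 1 (0.101). Its call at point 3 was lost without all insulin replicates 1 (0.0594).

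Genes of CREB and immediate early signalling and targets of the glucocorticoid receptor were followed in 2 lists. Whether either signal took part in the change of Per1 was not tested. All 4 genes of CREB and immediate early signalling, Nr4a1, Sik1, Fos and Crem, rose with insulin at point 2 (1.35% of all genes changed), with a list median of 2.81 beside -0.12 over all genes. Nr4a1, a nuclear receptor gene induced within minutes, averaged 57.7 ± 9.12 FPKM in insulin and 1.06 ± 0.411 FPKM in PBS libraries, a difference of 4.84 ± 0.38 (adjusted p = 1.82e-08, limma). Crem (adjusted p = 0.0494) was lost without insulin replicate 2 (0.22), insulin replicate 3 (0.109), PBS replicate 2 (0.18) or PBS replicate 3 (0.257), without a filter on low values (0.118), with replicate number as a random effect (0.0512) and in a fit of only the libraries compared (0.162). Fos was lost in a fit of only the libraries compared (0.0516). The count was 3 at point 3 (9.45% of all genes changed), 2 at point 4 (13.2%) and 1 at point 5 (19.1%). In PBS libraries none of the 4 passed the test against point 1 (0.552, 2.38, 2.86 and 1.55% of all genes did at points 2 to 5). Of the 5 glucocorticoid receptor targets, which include Per1, all rose at point 2 within insulin libraries, where 3.22% of all genes changed. In PBS libraries Fkbp5 and Zbtb16 rose at points 2 to 5 (0.552, 2.38, 2.86 and 1.55% of all genes changed). Against PBS, Sgk1 and Per1 were the 2 of the 5 to pass at point 2, and the list median was -0.36 beside -0.12 over all genes. Sgk1 rose with insulin by 1.73 ± 0.22 there (3.86e-05). At point 3, 1 of the 5 rose, Sgk1, and 1 fell (9.45% of all genes changed). The fall was of Fkbp5, an inhibitor of the receptor, by 0.93 ± 0.16 (0.00114). None passed at point 4 (13.2%), and at point 5 Zbtb16 rose and Per1 fell (19.1%). The calls of Sgk1 at point 3 and of Zbtb16 at point 5 were not rerun.

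Genes that respond to body temperature, which can entrain peripheral clocks, changed mostly against point 1. Of 6 tested, the heat shock genes Hspa8, Hsph1 and Dnajb1 rose at point 2 in insulin libraries (3.22% of all genes changed) and in PBS libraries (0.552%). In insulin libraries the same 3 also rose at point 3 (8.96%), Hspa8 and Hsph1 at point 4 (9.65%) and Hspa8 at point 5 (9.60%). In PBS libraries none of the 6 passed at points 3 to 5 (2.38, 2.86 and 1.55%). The difference of the 2 courses passed for none of the 6 at any point. Cirbp, an RNA-binding protein induced by cold, fell at points 2 and 5 in insulin libraries. Between treatments none passed at points 1 to 4. At point 5, where 19.1% of all genes changed, Cirbp fell with insulin by 0.84 ± 0.26 (adjusted p = 0.0248, limma). The call was lost without insulin replicate 1 (0.107), insulin replicate 3 (0.0851) or PBS replicate 3 (0.142), without a filter on low values (0.0608), under median-ratio scaling (0.059), in a fit of only the libraries compared (0.0733) and without all insulin replicates 1 (0.0876).

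**Figure D4:**
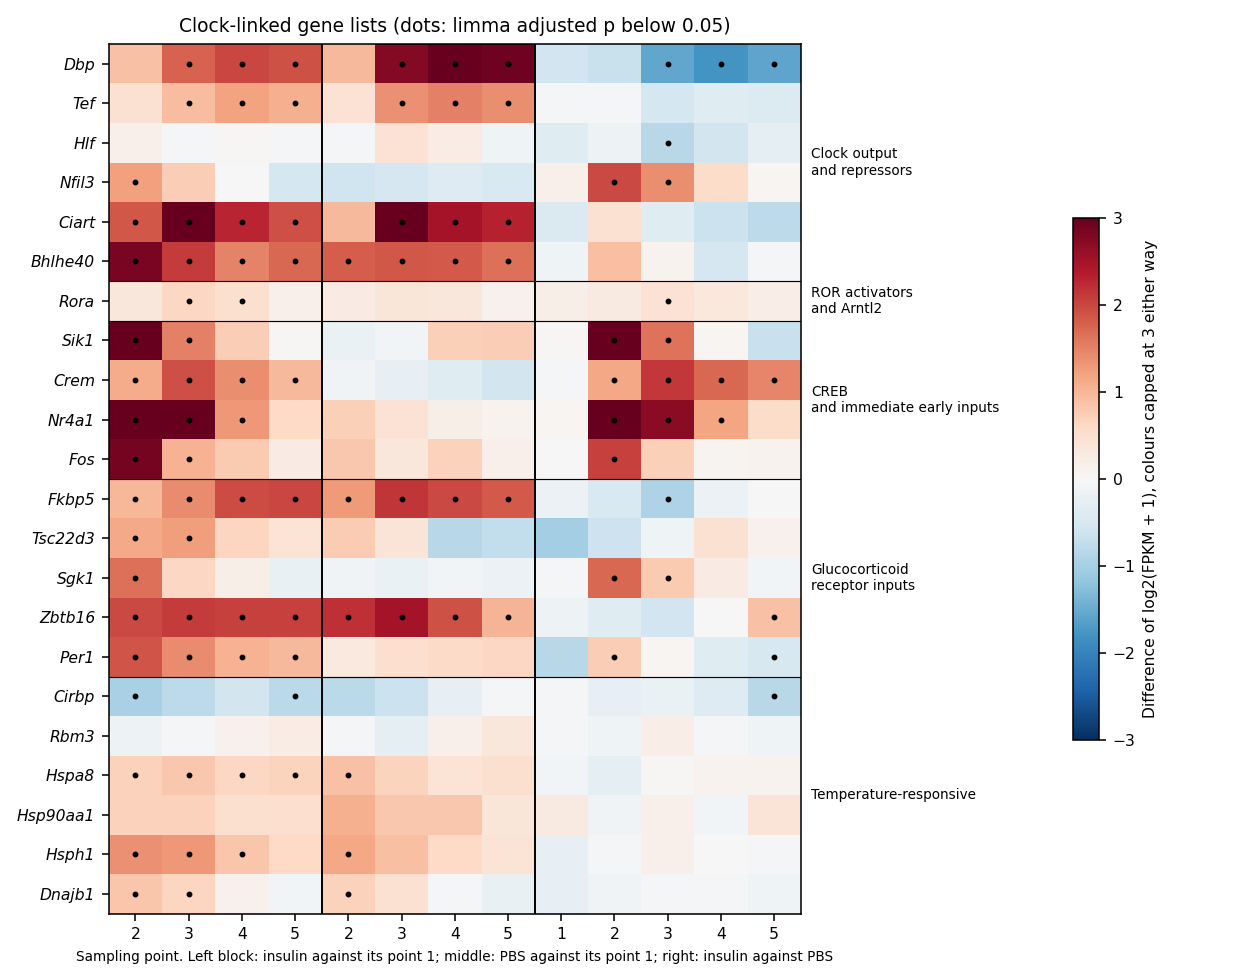
Differences of log2(FPKM + 1) for the tested genes of 5 clock-linked lists (rows) against point 1 within insulin (left block) and PBS libraries (middle block) and between insulin and PBS (right block), by sampling point; red is higher, blue lower, colours are capped at 3, and dots mark limma's adjusted p below 0.05. Dbp, Tef, Ciart and Bhlhe40 are red in both courses, and Dbp is blue against PBS from point 3. At point 2 the CREB genes are red with dots in the insulin course and against PBS.

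For each tested member the 2 genes most like it were taken by Pearson r over the 10 group means of log2(FPKM + 1), among genes with a mean of at least 1 FPKM, as a description. The points share libraries' treatment and depth. Closest to Arntl were Rnf125 (r = 0.969) and Clpx (r = 0.966), and to Clock Cav2 (r = 0.945) and Kbtbd2 (r = 0.943). For the REV-ERB genes they were Calr (r = 0.964) and Mustn1 (r = 0.963) with Nr1d1 and Pfkfb2 (r = 0.976) and Ippk (r = 0.970) with Nr1d2. Per1 was most like Nolc1 (r = 0.896) and Bhlhe40 (r = 0.893), of which Bhlhe40 is itself on the list of clock outputs. Per2 was nearest to Uap1 (r = 0.937) and Trim8 (r = 0.928), and Per3 to Hs3st3b1 (r = 0.946) and Eef1d (r = 0.942). Cry1 was nearest to Arf2 (r = 0.949) and Pcna-ps2 (r = 0.936), the second a pseudogene whose reads may come from Pcna, and Cry2 to Tomm20 (r = 0.903) and Krr1 (r = 0.899).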

How the data were processed

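Liver poly(A) RNA of 30 libraries was measured as FPKM, the unit of the authors' deposited table. HISAT2 2.1.0, SAMtools 1.9, StringTie 2.0.3 and GRCm38 are named in the submitters' processing notes, and the strand setting and annotation were not given there. FPKM are not counts, so no count test was run. Cells without a value (32.2% of the table) were set to 0. Depth was estimated from the steps of low values, of which only 39.3 to 47.3% came out whole within 0.05, so it is approximate and gives no counting interval.

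Groups, points and replicate numbers came from the sample titles. Genes that reached 1 FPKM in at least 3 libraries (13589 of 29117) were fitted as log2(FPKM + 1) by limma 3.58.1 (R 4.3.3) with 10 group means, a mean-variance trend and 20 residual degrees of freedom, and p-values were adjusted over all tested genes by Benjamini-Hochberg. The same steps were tested on simulated data. Replicates of a group correlated at r = 0.966 to 0.983 over genes. Positions are from GENCODE M21 (29066 of 29117 genes matched) and promoters from RefSeq (GRCm38.p6).

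Pairing was checked by correlating deviations from group means between same-numbered libraries, and r was -0.11 to 0.12 between insulin and PBS. These values show no pairing but cannot exclude a shared factor, because PBS libraries on the same lane had a median r of only 0.05. Within treatments the median r was 0.10 for insulin, with 15 of 30 pairs above 0.1, and 0.05 for PBS, with 5 of 30. The labels put each PBS number on its own sequencing lane, so fits with that number as a block are given beside the PBS courses where they changed a call. Insulin number 2 was on lane 1 and number 3 on lane 2 at every point. Insulin number 1 was on lane 2 at points 1 to 4 and on lane 1 at point 5. The insulin course at point 5 thus includes a change of lane for number 1, whose part was not tested.

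Alternatives were a pseudocount of 0.1, no filter, median-ratio scaling, the replicate number as a block or a random effect, fits of only the libraries compared, and leaving out each library. The block was the number across treatments for insulin against PBS, and the number within each treatment for courses and F tests. The random effect was always the number within each treatment. Leaving out all insulin replicates 1 was added after seeing the data. The members and lists were chosen with earlier results of these data known. Text names all members, list genes with the smallest adjusted p-values (up to 3 per list) and the 2 genes most like each member; other list genes were named after their values were seen. A gene of these lists is not reported here.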

Additional observations from a re-analysis of the deposited data

Results flagged for a closer look

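Per1 was singled out because its 2 courses differed by a test of the difference itself. Its change between point 1 and point 2 was larger in insulin than in PBS libraries by 1.59 on the log2(FPKM + 1) scale (adjusted p = 0.000658, limma). The insulin libraries averaged 11.0 ± 0.748 FPKM at point 2, against 2.26 ± 0.412 FPKM at point 1, and the PBS libraries averaged 6.13 ± 0.376 FPKM at point 2, against 4.85 ± 1.02 FPKM at point 1 (SD, n = 3 each).

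The gap between insulin and PBS also depended on the point in limma's treatment by point F test for Per1 (adjusted p = 0.00144), Per2 (0.00618) and Per3 (0.0486). Of 11 alternatives, Per2 lost this result in 3 and Per3 in 10. Per1 was higher with insulin at point 2 and lower at point 5, Per2 was higher at point 3 and lower at point 5, and Per3 was lower at points 3 to 5. Of 13 alternatives, Per1 lost its call in 2 at point 2 and in 8 at point 5. Per2 lost it in 3 at point 3 and in 4 at point 5, and Per3 in 5, 3 and 1 at points 3 to 5.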

How the results depend on the processing

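Over all alternatives run, no call of a member was reversed, nor was any call of a list gene that was rerun. Calls against point 1 of the glucocorticoid receptor targets other than Per1 and of the temperature-responsive genes were not rerun. Counts are members called of 9. With a pseudocount of 0.1 the count for insulin against PBS was 1 at point 1 and 1 at point 4, against 0 and 2, and the difference of courses at point 3 gave 1, against 0. Without a filter insulin against PBS at point 5 gave 2, against 4. Median-ratio scaling gave 3 at point 2 and 4 at point 4 for insulin against PBS, against 1 and 2, and 1 for the difference of courses at point 3, against 0. In fits of only the libraries compared, insulin against PBS gave 0 at point 4 and 1 at point 5, against 2 and 4. Without all insulin replicates 1, which was chosen after seeing the data, insulin against PBS at point 5 gave 2 and the insulin course at point 5 gave 2, each against 4. With replicate number as a random effect the PBS course at point 4 gave 5, against 3, and the difference of courses at point 3 gave 1, against 0.

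The sources state no pairing of insulin and PBS libraries that share a number, and the check above could not exclude it. With the replicate block, insulin against PBS gave 1 member at point 1 (Per1, adjusted p = 0.0437, limma) and 3 at point 2, where Nr1d1 (0.0355) and Per2 (0.0335) joined, and the PBS course at point 4 gave 5. The block also added Nr1d1 at point 3 (0.0471) and Nr1d2 at point 5 (0.0426) against PBS and Nr1d2 at point 2 of the insulin course (0.0405), and Per3 was lost from the treatment by point F test (0.0516). Apart from these and the PBS courses of Nr1d2 and Per1 given above, it changed no call of a member or of a list gene that was rerun.

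Leaving out 1 library gave 0 to 1, 0 to 1, 1 to 3, 0 to 3 and 2 to 4 members for insulin against PBS at points 1 to 5. At points 2 to 5 it gave 2 to 4, 5 to 6, 5 to 7 and 2 to 5 in the insulin course, 0 to 0, 3 to 3, 3 to 4 and 3 to 4 in the PBS course, and 1 to 1, 0 to 1, 0 to 0 and 0 to 0 for the difference of courses. Leaving out a replicate number of 1 treatment gave 5 to 6 members in the insulin F test, 2 to 3 in the PBS F test and 1 to 2 in the treatment by point F test, which was not run with only the libraries compared.

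With 3 libraries a group, many calls of single genes did not hold without 1 library, and the counts of lists were not recomputed. Depth enters only as an estimate, and values under 1 FPKM, such as those of Npas2, are the least certain. Lane and treatment cannot be told apart. The cause of each change between settings was not tested.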
